A study of Mus musculus with 4 samples.

Results

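F-box proteins are the subunits of SCF ubiquitin ligases that choose the substrate. The genes described here were chosen by symbol, as those named Fbxl, Fbxo or Fbxw followed by a number, and 71 of the 22180 genes read on the arrays matched. Of these, 17 are Fbxl, 31 Fbxo and 23 Fbxw genes. Fbxo32, Fbxo30, Fbxo31, Fbxo21 and Fbxo40 were left out by the rule. Each gene was represented by its brightest transcript cluster with a single symbol. Fbxl12os, a transcribed pseudogene and not a protein gene, matched the symbol rule and was counted. Of the 71 genes, 43 lay above a level filter set at the median of all clusters, and 28 lay below it.

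Gastrocnemius, a calf muscle of mostly fast fibres, was profiled on Affymetrix arrays, with 4 groups and 1 array for each. Wild-type (WT) mice and mice with a skeletal muscle specific knockout (KO) of Klf15 were each given vehicle or streptozotocin (STZ), a toxin of the insulin-producing beta cells. Mice received 50 mg/kg STZ or the sodium citrate vehicle (50 mM, pH 4.5) into the peritoneum once on each of 5 successive days, and muscle was taken 3 weeks later. The sources used here do not give the promoter that drove the deletion, or the strain, age and number of mice behind each array. With 1 array per group there is no replicate check, no test was run, and higher and lower describe single arrays.

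Klf15 itself read 50.5 in WT vehicle and 72.1 in WT STZ, against 19.8 in KO vehicle and 16.04 in KO STZ, so both KO arrays were below both WT arrays. The fast fibre genes Acta1, Ckm and Myh4 read between 7237 and 8549 on every array, so defining markers of the labelled tissue were present. The median intensity of all clusters lay between 5.73 (WT STZ) and 5.96 (KO STZ). In bulk muscle, fewer cells of a type and less RNA per cell cannot be told apart.

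An SCF ligase joins the scaffold cullin CUL1, the RING protein RBX1 and the adaptor SKP1, and the F-box motif docks an exchangeable receptor onto SKP1. Receptors with leucine-rich repeats are named FBXL, those with WD40 repeats FBXW, and those with other or no known domains FBXO. Each receptor brings its own substrates, often phosphorylated ones, to the ligase, and attachment of the small protein NEDD8 to the cullin switches the ligase on. In muscle the family is best known for atrogin-1, the product of Fbxo32, which is induced in wasting. The comparisons asked which of the other F-box genes differ after STZ or after loss of Klf15.

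Promoter sequence is shown for Fbxl4 and Fbxo42, the members at least 1.5-fold different between genotypes on the log2 scale with an offset defined below, one lower and one higher in KO. Factors of the Kruppel-like family bind CACCC boxes and GC boxes. The 250 bases before each RefSeq start (build GRCm38.p6, 5′ to 3′) were searched on both strands for CACCC and for GGGCGG, and matches are in capitals. The Fbxl4 window lies at chr4:22357293-22357542 and the Fbxo42 window at chr4:141147672-141147921, both on the plus strand.
Fbxl4: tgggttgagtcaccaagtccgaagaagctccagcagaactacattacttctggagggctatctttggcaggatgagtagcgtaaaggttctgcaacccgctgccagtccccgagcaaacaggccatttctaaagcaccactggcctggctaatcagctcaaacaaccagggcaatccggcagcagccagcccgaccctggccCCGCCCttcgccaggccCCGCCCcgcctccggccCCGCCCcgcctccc
Fbxo42: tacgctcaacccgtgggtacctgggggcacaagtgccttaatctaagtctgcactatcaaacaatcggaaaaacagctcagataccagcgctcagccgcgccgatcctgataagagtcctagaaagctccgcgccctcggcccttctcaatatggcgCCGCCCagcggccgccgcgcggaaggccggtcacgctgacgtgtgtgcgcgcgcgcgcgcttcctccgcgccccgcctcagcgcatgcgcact

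The Fbxl4 window held 3 GC boxes and the Fbxo42 window 1, all read as CCGCCC, and neither held CACCC. The 2 windows were 62.4% and 64% G or C. Over all 32851 promoter windows of the table, 52.0% held CACCC and 32.7% held GGGCGG. Of the 43 genes above the filter, 34 were listed, with 48 windows, of which 52.1% held CACCC and 60.4% GGGCGG. The windows of the whole table were not limited to genes above the filter, so these shares are not a matched comparison. Fbxl5, Fbxl6, Fbxl8, Fbxo25, Fbxo3, Fbxo38, Fbxo45, Fbxw4 and Fbxw8 were not listed. A match describes the letters of the window and is no evidence of binding.

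The intensity of a cluster depends on its probes, so levels are given per gene and are not ranked between genes as amounts of transcript. Fbxw5, a WD40 receptor that also serves cullin 4 ligases, read 389.9 in WT vehicle and 376.6 in WT STZ, against 361.1 in KO vehicle and 335.2 in KO STZ. Fbxo3, which targets the F-box protein FBXL2, read 381.2, 350.1, 359.8 and 329.3 in the same order of arrays. Both were lowest in KO STZ, by small margins. Fbxo11, a receptor for the transcription factor BCL6 in human B cells, read 198.0, 219.5, 188.8 and 168.1. Fbxo8, an F-box protein with a Sec7 domain, read 126.0, 136.0, 112.4 and 104.4. These 2 genes were highest in WT STZ and lowest in KO STZ.

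**Figure D1:**
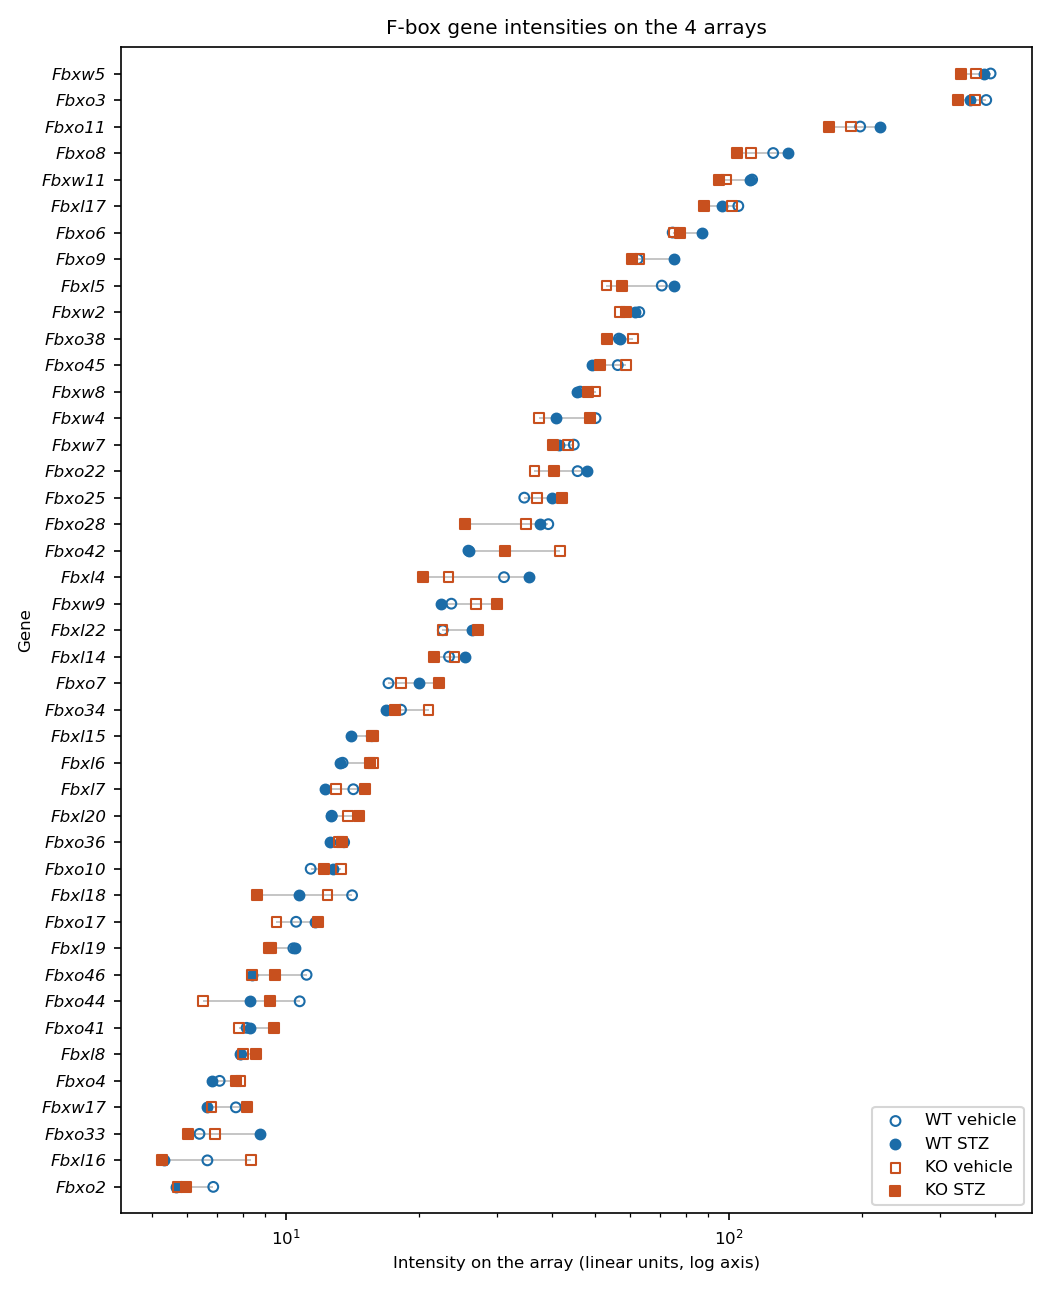
Intensity of the 43 F-box genes above the level filter (log axis), with 1 point per array, open for vehicle and filled for STZ, circles for WT and squares for KO. The 4 arrays of a gene mostly lie close together; Fbxl4 is lowest in KO STZ at 20.4 and highest in WT STZ at 35.4, and Fbxo42 highest in KO vehicle at 41.7.

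No muscle-specific reading is implied by the filter. As a dim reference, 95% of 1405 odorant, vomeronasal and trace amine receptor genes had a mean level under an intensity of 6.03, with a median of 3.20. All 43 genes above the filter were also above this reference. The dimmest of them was Fbxo2, at 5.65 to 6.86, and the brightest below the filter was Fbxw20, at 4.47 to 6.31.

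The mouse genes Fbxw13 to Fbxw28 made up most of the dim side. Of these 16 genes, 15 lay below the filter, and in the RefSeq gene order these 15 follow each other without another protein-coding gene between them, on chromosome 9. Close copies of one gene can share probes, so their readings are not independent. Their intensities ran from 2.47 to 7.25, with the highest reading from Fbxw23 in KO STZ. Fbxw17, on chromosome 13, was the exception, at 7.72, 6.63, 6.80 and 8.18 in WT vehicle, WT STZ, KO vehicle and KO STZ. The oocyte markers Zp1, Zp2, Zp3, Gdf9, Bmp15 and Nlrp5 were likewise all below the filter, at 2.82 to 6.45.

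The other 13 genes below the filter read between 3.02 and 5.49. They include Fbxo5 and Fbxo43, which inhibit the anaphase-promoting complex in dividing cells and in meiosis, and Fbxl21, which acts on cryptochromes of the circadian clock. Fbxl2 and the sugar-binding Fbxo27 were also among them, with Fbxo15, Fbxo16, Fbxo24, Fbxo39, Fbxo47, Fbxo48, Fbxl13 and Fbxl12os. Differences of genes this dim are not interpreted.

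The 43 genes varied little over the 4 arrays. Differences are on the scale of log2(intensity + 3.69), whose offset, percentile 25 of the table's values, damps changes of dim genes. The median span from lowest to highest array was 0.23, against 0.29 for all 13258 genes above the filter. A span of at least 1.5-fold was seen in 2 of 43 genes, Fbxl4 and Fbxo42, beside 8.02% of all genes. A span of at least 0.32 on the log2 scale, used here as a lower threshold beside 1.5-fold, was seen in 13 of 43, or 30.2%, beside 42.6% of all genes. The lowest array was KO STZ for 16 genes, WT STZ for 14, KO vehicle for 8 and WT vehicle for 5. The lowest array was not counted over all genes, so whether these counts differ from the background was not tested. For KO against WT under STZ, the log2 difference was below 0 in 58.1% of all genes and 48.8% of the 43.

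The first comparison set STZ against vehicle in WT muscle. None of the 43 genes differed by 0.32 or more on the log2 scale, while 8.43% of all genes did so upward and 5.07% downward. At 1.5-fold the count was again 0 of 43 each way, beside 1.27% of all genes upward and 0.445% downward. With an offset of 1, Fbxo33 was past 0.32 upward and Fbxl18, Fbxo44 and Fbxo46 downward. The median log2 difference was -0.016, against 0.0075 for all genes, with 18 genes above 0 and 25 below. The values ran from -0.31 to 0.31.

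The upper end in WT STZ was held by Fbxo33 at 0.31, a receptor for the RNA-binding protein YB-1. Fbxo33 read 6.39 in WT vehicle and 8.77 in WT STZ, against 6.94 in KO vehicle and 6.01 in KO STZ, close to the dim reference. Fbxo9, which targets TOR-associated factors in human myeloma cells, stood at 0.26. Its 62.3 in WT vehicle and 75.3 in WT STZ compare with 62.9 in KO vehicle and 60.4 in KO STZ, so WT STZ alone was high. Fbxo6, which binds glycans of misfolded glycoproteins, stood at 0.21, Fbxl22, of the sarcomere Z-disc in heart, at 0.19, and Fbxo7, which acts in mitophagy and binds a proteasome regulator, at 0.19.

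At the lower end in WT STZ were Fbxl18 at -0.31, Fbxo46 at -0.30, Fbxw4 at -0.27, Fbxo44 at -0.27 and Fbxl16 at -0.20. Fbxw4 is altered in mouse dactylaplasia, a limb malformation. All 8 Fbxw genes above the filter were below 0, with a median of -0.058 and values from -0.27 to -0.015. Below 0 were also 8 of 13 Fbxl genes, 9 of 22 Fbxo genes and 48.3% of all genes. No Fbxw gene reached 0.32 in size, and the same 8 genes had a median of -0.0031 in KO, with 4 above 0.

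The second comparison set STZ against vehicle in KO muscle and shares no array with the first. At 1.5-fold 0 of 43 genes differed, beside 0.445% of all genes upward and 0.656% downward. At 0.32 on the log2 scale 2 genes were higher, or 4.65%, beside 4.47% of all genes, and 4 were lower, or 9.3%, beside 7.72%. The median was -0.020, against -0.032 for all genes. The members' shares thus lay near the background.

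The higher genes were Fbxw4 at 0.35 and Fbxo44 at 0.34. Fbxw4 read 50.1 in WT vehicle and 40.8 in WT STZ, against 37.2 in KO vehicle and 48.6 in KO STZ, so WT vehicle and KO STZ were both high. Fbxo44, a relative of the sugar-binding receptors, read 10.8, 8.33, 6.50 and 9.22 in that order and had the same ordering of arrays. Fbxo7 at 0.24, Fbxo17 at 0.23 and Fbxl22 at 0.23 came next.

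The lower genes in KO STZ were Fbxl16 at -0.43, Fbxo28 at -0.41, Fbxl18 at -0.39 and Fbxo42 at -0.37. Fbxo28, which acts on MYC in human cells, read 39.2 in WT vehicle and 37.5 in WT STZ, against 34.9 in KO vehicle and 25.4 in KO STZ. KO STZ alone was low. Fbxl18, a regulator of FBXL7, read 14.1, 10.7, 12.4 and 8.62, lower with STZ in both genotypes. Fbxl16 read 6.66, 5.30, 8.34 and 5.27, lower on both STZ arrays, at intensities where the dim reference lies.

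**Figure D2:**
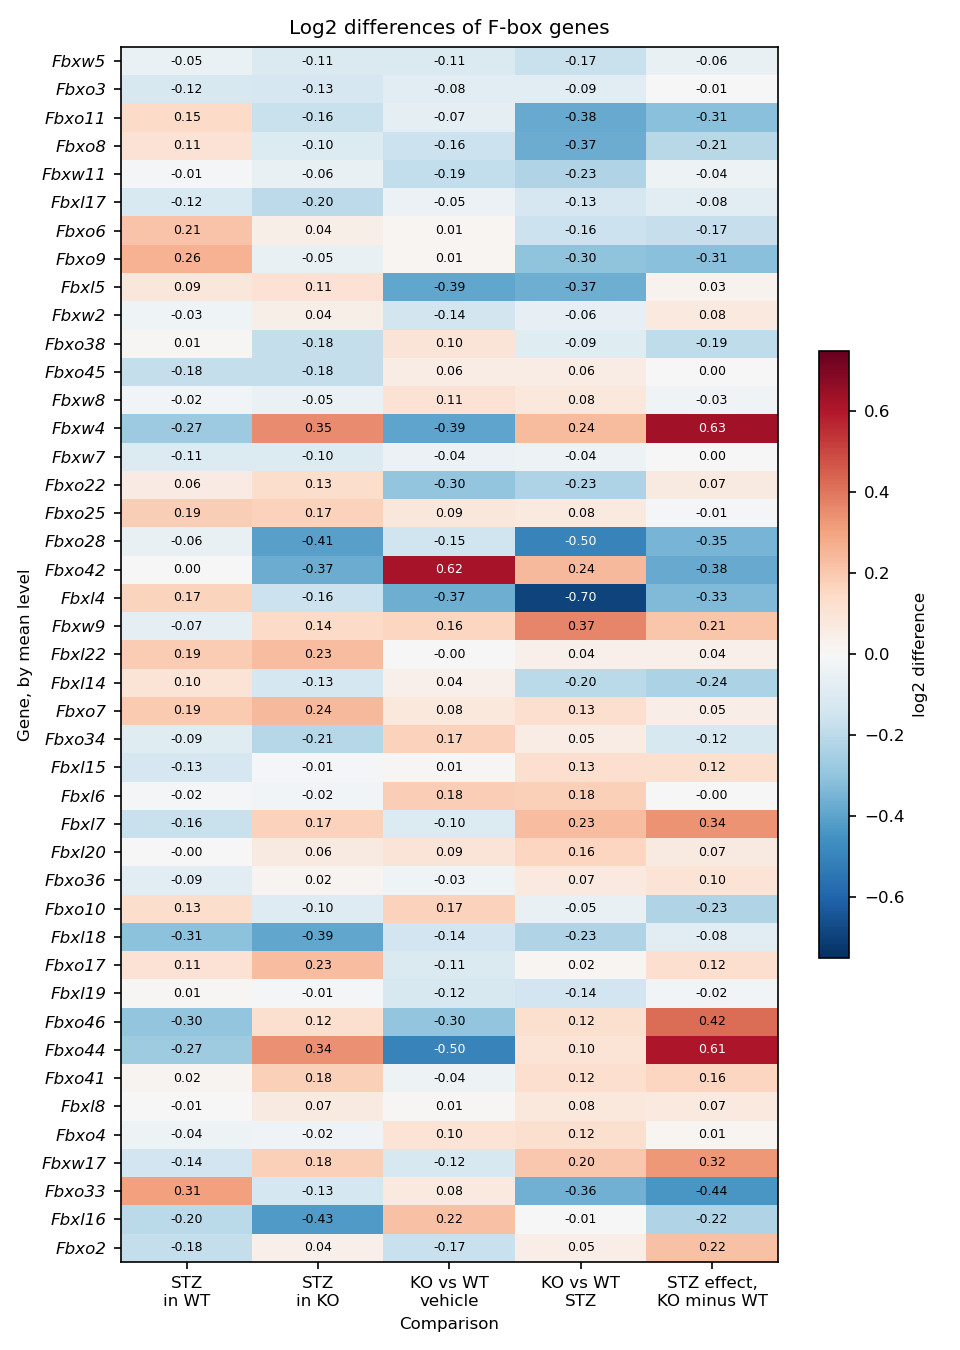
Log2 differences of the 43 genes (rows, ordered by mean level) in 5 comparisons (columns), with blue for lower and red for higher. Most cells are pale; Fbxo42 at 0.62 (KO against WT, vehicle) and Fbxl4 at -0.70 (KO against WT, STZ) are the only cells past 1.5-fold in a pairwise comparison.

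About as many genes kept their direction after STZ between the genotypes as turned it. Across the 43 genes the STZ differences in WT and KO correlated with r = 0.049 (rho = 0.072), against r = 0.056 over all 13258 genes, given as a description across genes that are not independent replicates. Of the 43, 22 had the same sign in both, or 51.2%, beside 51.1% of all genes. Fbxo7 stood at 0.19 and 0.24, Fbxl22 at 0.19 and 0.23 and Fbxo25 at 0.19 and 0.17. Fbxo25, a receptor for heart transcription factors and a relative of atrogin-1 in sequence, read 34.6 in WT vehicle and 39.8 in WT STZ, against 36.9 in KO vehicle and 42.2 in KO STZ. Fbxo7 read 17.1, 20.05, 18.2 and 22.2, and Fbxl22 read 22.6, 26.3, 22.6 and 27.2. In each of these 3 genes both STZ arrays were above both vehicle arrays, by less than 0.32 within a genotype. On the lower side, Fbxl18 stood at -0.31 and -0.39 and Fbxo45, a synaptic F-box protein, at -0.18 and -0.18.

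The third comparison set KO against WT under vehicle. Fbxo42 was at least 1.5-fold higher, 1 of 43 genes or 2.33%, beside 0.581% of all genes, and 0 were 1.5-fold lower, beside 0.777%. At 0.32 Fbxo42 was again alone on the higher side, beside 5.61% of all genes. On the lower side were Fbxo44, Fbxw4, Fbxl5 and Fbxl4, 4 of 43 or 9.3%, beside 5.72%. Fbxo44 stood at -0.50, and at -0.65, past 1.5-fold, with an offset of 1. The median was -0.037, against -0.0039 for all genes.

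Fbxo42, a Kelch-repeat F-box protein that targets p53, read 25.9 in WT vehicle and 25.9 in WT STZ, against 41.7 in KO vehicle and 31.3 in KO STZ. Both KO arrays were above both WT arrays, and KO vehicle stood highest. The difference was 0.62 under vehicle, at percentile 99.6 of all genes, and 0.24 under STZ. With an offset of 16 the vehicle difference was 0.46, short of 1.5-fold.

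Fbxl5, the iron-sensing receptor that degrades iron regulatory protein 2, read 70.6 in WT vehicle and 75.1 in WT STZ, against 53.0 in KO vehicle and 57.5 in KO STZ. Both KO arrays were below both WT arrays. The KO difference was -0.39 under vehicle and -0.37 under STZ, at percentiles 3.32 and 10.4 of all genes. The latter value was -0.22 under quantile normalization and -0.24 under lowess, short of 0.32. The STZ differences were 0.085 and 0.11. Fbxo22, a receptor for the histone demethylase KDM4A, showed the same ordering at 45.6, 47.8, 36.4 and 40.2, with KO differences of -0.30 and -0.23, each under 0.32 in size.

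The fourth comparison set KO against WT under STZ and shares no array with the third. Fbxl4 was at least 1.5-fold lower, 1 of 43 or 2.33%, beside 2.81% of all genes, and 0 were 1.5-fold higher, beside 0.845%. At 0.32 on the log2 scale 6 genes were lower, or 14%, beside 13.6%, and Fbxw9 at 0.37 was higher, beside 6.22%. The median was 0.018, against -0.048 for all genes.

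Fbxl4, a mitochondrial F-box protein that restrains mitophagy and is needed to keep mitochondrial DNA, read 31.1 in WT vehicle and 35.4 in WT STZ, against 23.3 in KO vehicle and 20.4 in KO STZ. Both KO arrays were below both WT arrays. The difference was -0.37 under vehicle and -0.70 under STZ, at percentiles 4.04 and 1.61 of all genes. STZ went with 0.17 in WT and -0.16 in KO. With an offset of 16 the difference under STZ was -0.50, short of 1.5-fold. The other mitochondrial member, Fbxo7, stood at 0.078 and 0.13 in KO.

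The remaining genes below WT by 0.32 or more under STZ were Fbxo28 at -0.50, Fbxo11 at -0.38, Fbxo8 at -0.37, Fbxl5 at -0.37 and Fbxo33 at -0.36. Fbxo11 (-0.19 and -0.22), Fbxo8 (-0.22 and -0.23) and Fbxl5 fell short of 0.32 under quantile normalization and lowess, and Fbxo33 stood at -0.17 with an offset of 16. Fbxo28 stayed past 0.32 under all 8 alternatives, at -0.37 to -0.54, but not all of them could move it. The filter settings could not move a single gene's difference. Nor could the mean of clusters where, as for Fbxo28, a gene has 1 cluster. Bright genes as a whole sat lower on this contrast. Over the 7212 genes above level percentile 75 the median was -0.11, and over the 23 F-box genes among them it was -0.13. Of these 23 genes, 5 were lower by 0.32 or more, while 19.4% of the 7212 genes were. Of the 12 brightest F-box genes, 11 were below 0, Fbxo45 at 0.056 being the exception. Below 0 were 69.6% of the 23 F-box genes and 68.6% of the 7212 genes, which reach lower levels than these 12. Of the 11, Fbxw5, Fbxo3, Fbxl17, Fbxw2 and Fbxo38 each turned above 0 under 2 of the 8 alternatives. Fbxw9 read 23.7, 22.4, 26.9 and 30.0 in WT vehicle, WT STZ, KO vehicle and KO STZ, but its second, dimmer cluster stood at -0.43 under vehicle and -0.092 under STZ, so its clusters disagree. The mean of both clusters gave 0.14 under STZ. The second cluster of Fbxw5, at 13.4 to 15.5, had a KO difference of 0.080 under STZ, against -0.17 for the bright one.

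**Figure D3:**
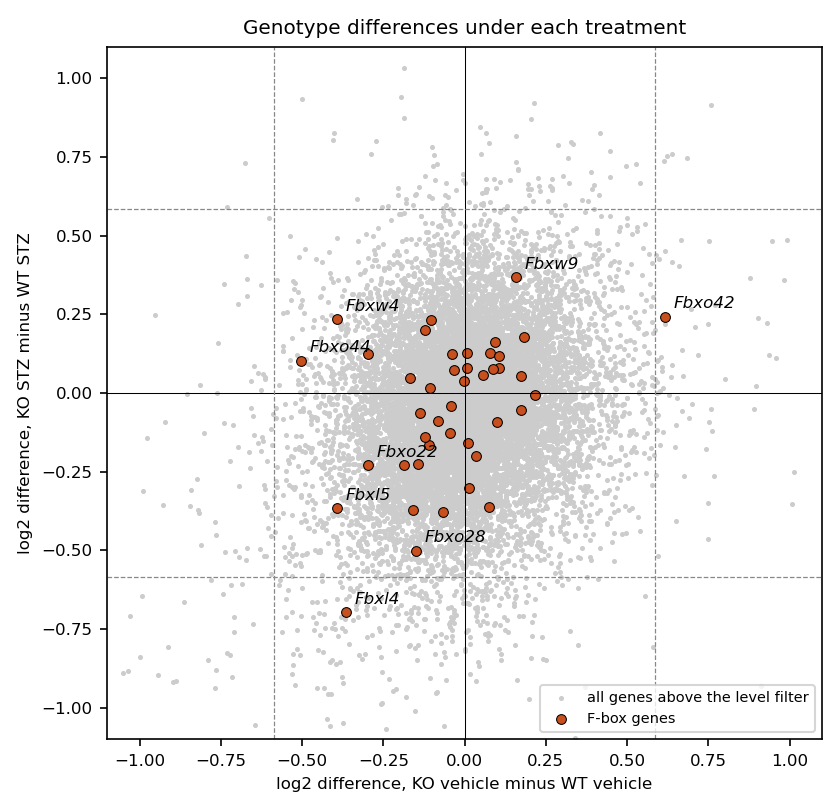
KO minus WT log2 differences under vehicle (horizontal axis) and STZ (vertical axis) for the 43 F-box genes (orange) and all genes above the level filter (grey), with dashed lines at 1.5-fold and 40 grey genes outside the axes. Fbxl4 and Fbxl5 lie low on both axes and Fbxo42 high on both, while most F-box genes lie near the centre.

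Across the 43 genes the correlation of the KO differences between treatments was r = 0.37 (rho = 0.35), beside r = 0.23 (rho = 0.19) over all genes, as a description. The same sign was seen in 26 of 43, or 60.5%, beside 56.3% of all genes. Among well-studied receptors, Fbxw7, which targets cyclin E, MYC and NOTCH, read 44.7, 41.3, 43.3 and 40.0 in WT vehicle, WT STZ, KO vehicle and KO STZ, with KO differences of -0.042 and -0.041. Fbxw11, a receptor for phosphorylated beta-catenin and the NF-kappaB inhibitor, read 112.9, 111.7, 98.8 and 94.9, with KO differences of -0.19 and -0.23. Fbxw8, the cullin 7 partner that degrades the insulin receptor substrate IRS1, read 46.2, 45.5, 50.1 and 48.2 and differed by 0.11 and 0.080. Fbxo38, known as a cofactor of the Kruppel-like factor KLF7, read 56.5, 56.9, 60.8 and 53.2 and differed by 0.098 and -0.092.

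The other receptors lay within 0.32 in both genotype comparisons. Fbxl17, which removes wrongly paired BTB proteins, stood at -0.046 under vehicle and -0.13 under STZ, and Fbxw2 at -0.14 and -0.063. Fbxl14, which targets SNAIL, stood at 0.036 and -0.20, and Fbxl7, an Aurora kinase regulator, at -0.10 and 0.23. Fbxl15, a regulator of SMURF1, stood at 0.0064 and 0.13, Fbxl20, which acts at synapses, at 0.095 and 0.16, and Fbxo10, which targets BCL2, at 0.17 and -0.053. Fbxl6, Fbxl8, Fbxl16, Fbxl19, Fbxo2, Fbxo4, Fbxo17, Fbxo34, Fbxo36, Fbxo41 and Fbxw17 ran from -0.17 to 0.22 under vehicle and from -0.14 to 0.20 under STZ.

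The last comparison took the STZ difference in KO minus that in WT and uses all 4 arrays, so it shares arrays with each comparison above. Fbxw4 at 0.63 and Fbxo44 at 0.61 were past 1.5-fold on the positive side, 2 of 43 or 4.65%, beside 1.76% of all genes. On the negative side 0 of 43 were, beside 3.91%. At 0.32 5 genes were positive, or 11.6%, beside 9.45%, namely these 2 with Fbxo46 at 0.42, Fbxl7 at 0.34 and Fbxw17 at 0.32. Another 4 were negative, or 9.3%, beside 16.5%, namely Fbxo33 at -0.44, Fbxo42 at -0.38, Fbxo28 at -0.35 and Fbxl4 at -0.33. The median was -0.0037, against -0.048 for all genes. The call of Fbxo44 ended under quantile normalization (0.58), lowess (0.57), median centring (0.58) and an offset of 16 (0.30), and that of Fbxw4 under the last (0.50).

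**Figure D4:**
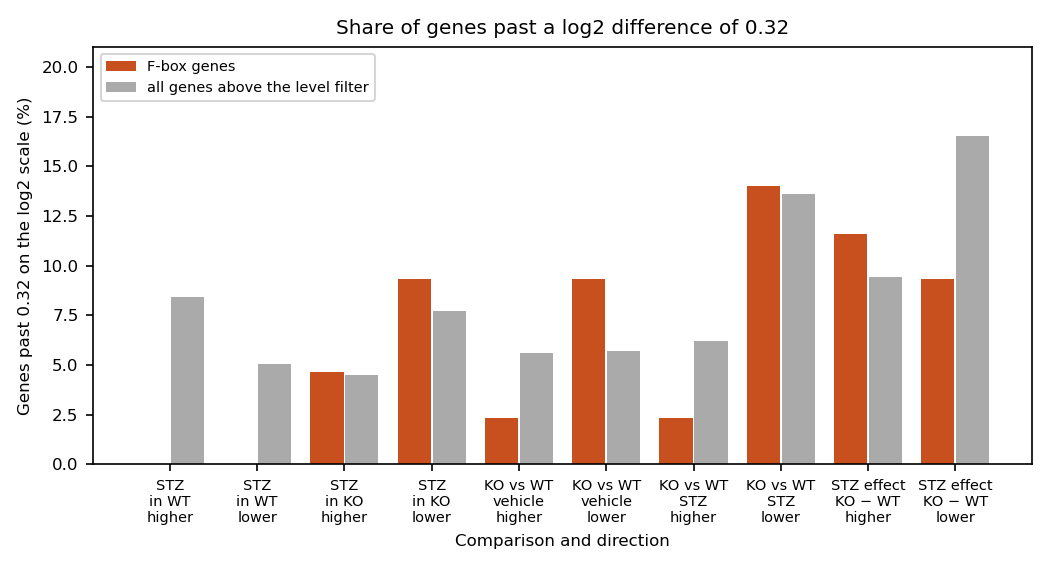
Percent of genes higher or lower by at least 0.32 on the log2 scale in each comparison, for the 43 F-box genes (orange) and the 13258 genes above the level filter (grey). F-box genes have no bar for STZ in WT because none passed, and their bar for lower in KO under STZ (14%) stands beside a grey bar of 13.6%.

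The F-box genes left out by the rule are given for scale. Fbxo32 read 541.5 in WT vehicle and 695.8 in WT STZ, against 529.5 in KO vehicle and 427.0 in KO STZ, with STZ differences of 0.36 in WT and -0.31 in KO. Its KO difference was -0.032 under vehicle and -0.70 under STZ. No F-box gene of the 43 was as high as 0.36 in WT STZ, while Fbxl4 likewise stood at -0.70 in KO under STZ. Fbxo30 stood at 0.12 and -0.40 in KO under vehicle and STZ. Fbxo31 stood at -0.086 and 0.013, Fbxo21 at 0.10 and -0.014, and Fbxo40 at -0.072 and -0.14.

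Genes of the ligase machinery were read from 5 lists holding 45 symbols, of which 38 were found and 37 lay above the filter. In WT STZ 0 of 37 reached 1.5-fold. By the threshold of 0.32, 3 were higher and 2 lower, beside 8.43% and 5.07% of all genes. In KO STZ against KO vehicle 0 were higher and 2 lower, beside 4.47% and 7.72%. For KO against WT under vehicle 1 was higher and 3 lower, beside 5.61% and 5.72%, with a median of -0.12. Under STZ 4 were higher and 12 lower, beside 6.22% and 13.6%, and the median was -0.25, against -0.048 for all genes and -0.11 for those above level percentile 75. Of these bright genes 19.4% were lower by 0.32 or more.

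The NEDD8-activating enzyme is a dimer of the products of Nae1 and Uba3. Nae1 read 61.8 in WT vehicle and 93.8 in WT STZ, against 54.4 in KO vehicle and 52.1 in KO STZ. Uba3 read 111.3, 165.4, 116.6 and 106.4. For both genes WT STZ alone was high and the other 3 arrays were close. The STZ difference in WT was 0.57 for Nae1 and 0.56 for Uba3, just short of 1.5-fold, and in KO it was -0.060 and -0.13. Under STZ the KO difference was -0.81 and -0.62. Of 9 neddylation genes, 6 were lower in KO under STZ by 0.32 or more, 2 of them past 1.5-fold, and the median was -0.33. Of all genes 13.6% and 2.81% passed these thresholds, and of genes above level percentile 75, 19.4% passed the lower one. Nedd8 at -0.330, Dcun1d2 at -0.328 and Dcun1d5 at -0.343 were barely past it. The processing alternatives were not run for the ligase machinery genes. Dcun1d3, a cofactor of NEDD8 transfer to cullins, stood at -0.54.

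The cullin Cul1 read 166.4 in WT vehicle and 213.8 in WT STZ, against 158.3 in KO vehicle and 164.9 in KO STZ, with WT STZ again alone on the high side at 0.35. The adaptor Skp1 read 486.6, 523.0, 408.7 and 439.1, and its KO difference was -0.25 under each treatment. Of 8 listed ubiquitin-conjugating enzymes, 6 were found. Under vehicle 6 of 6 were below 0 in KO, with a median of -0.27. Of all genes 50.8% were below 0 there, and 52.8% of those above level percentile 75. Under STZ 6 of 6 were below 0, with a median of -0.29, beside 58.1% and 68.6%. Among them Cdc34, which serves SCF ligases, stood at -0.26 under vehicle and -0.81 under STZ, and Ube2d1 at -0.40 and -0.13. Cops2 and Cops5, subunits of the signalosome that takes NEDD8 off cullins, stood at -0.39 and -0.54 under STZ. Cand2, a cullin exchange factor of muscle, stood at -0.35 in WT STZ and -0.25 in KO STZ.

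F-box genes with other names were read as well. Of 6 above the filter, 1, Lrrc29, was at least 1.5-fold higher in KO under STZ, at 0.64, with 12.4 in WT STZ and 21.3 in KO STZ, beside 0.845% of all genes. Skp2, the receptor for the cell-cycle inhibitor p27, stood at 0.36 in KO under vehicle, at readings of 6.27 in WT vehicle and 9.12 in KO vehicle. Btrc, the sister of Fbxw11, read 112.3 in WT vehicle and 91.2 in WT STZ, against 111.6 in KO vehicle and 103.1 in KO STZ. Its WT STZ difference was -0.29.

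**Figure D5:**
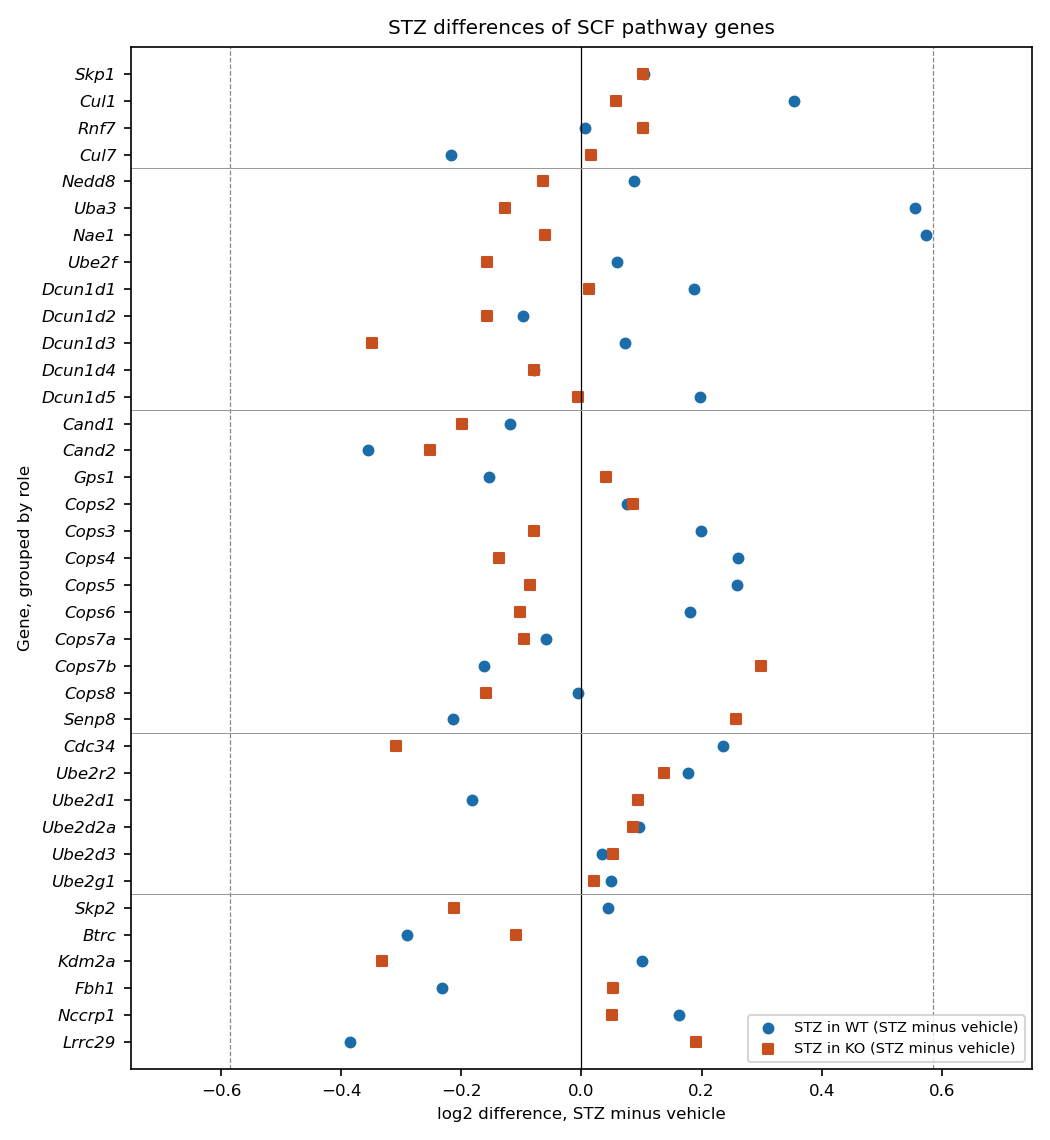
STZ minus vehicle log2 differences of 37 SCF pathway genes in WT (circles) and KO (squares), grouped from top to bottom as ligase core, neddylation, exchange and deneddylation, conjugating enzymes and other F-box genes, with dashed lines at 1.5-fold. Uba3 and Nae1 lie near the dashed line in WT, at 0.56 and 0.57, and close to 0 in KO.

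Markers of other fibres and cells also differed between the arrays. The summed intensity of 6 slow fibre markers was 689.4 in WT vehicle and 775.0 in WT STZ, against 595.1 in KO vehicle and 488.4 in KO STZ. Fbxl4, Fbxo11, Fbxo8, Fbxl19 and the left-out Fbxo32 and Fbxo40 had the same order of arrays. This order was not counted over all genes, so whether it was more common among F-box genes was not tested. Of the 6 markers, 3 were below 0 for STZ in WT, and all 6 for KO STZ against WT STZ. The sum of 4 adipocyte markers of 6 listed was 155.4, 162.2, 190.7 and 114.2. The sum of 6 tendon markers was 482.0, 548.6, 640.2 and 635.6. The sum of 6 endothelial markers was 594.2, 592.8, 694.2 and 661.0, and that of 6 macrophage markers 245.6, 297.0, 258.7 and 307.5. The sum of 6 fibroblast markers was 2876, 3144, 3295 and 3356. For nerve, 3 of 6 listed markers lay above the filter and summed to 225.5, 185.3, 190.8 and 174.8. Their median STZ difference was -0.16 in WT, with all 3 below 0, and 0.11 in KO, with 1 of the 3 below 0. Their median KO difference was -0.23 under vehicle, with all 3 below 0, and 0.053 under STZ, with 1 below 0. These medians had the same signs as Fbxw4 and Fbxo44. For the STZ difference in KO minus that in WT, 0 of the 3 markers were below 0, and both genes were positive. The nerve sum was lowest in KO STZ, while both genes were lowest in KO vehicle. A single nerve marker read up to 202.6, so 1 marker made up most of the WT vehicle sum. The 7 fast fibre markers summed to between 41572 and 43338. The part of these cell and fibre markers in the F-box differences was not tested.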

How the data were processed

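Biotin-labelled cRNA of 4 gastrocnemius samples was hybridised to Affymetrix arrays, per the labels' protocols. The deposited table lists 41345 transcript clusters, with a linear intensity from each array. The sources used here do not say how the authors corrected, summarised or normalized these intensity values, or on which genome build. Precision is limited by having 1 array per group.

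Values became log2(intensity + 3.69), the offset being percentile 25. Array medians lay within 0.035, under the limit of 0.1 for rescaling. Of 23521 clusters with 1 symbol, the brightest per gene gave 22180 genes. The 13258 genes with a mean level above the median of all clusters (intensity 5.81) were kept. All 71 members matched the RefSeq table (GRCm38.p6) by Entrez number. Clusters shared by several genes (Fbxl12 with Ubl5, Fbxw10 with Trim16, Dpcd with Fbxw4) were not used. Genes were counted at 1.5-fold and at a lower threshold of 0.32 on the log2 scale, beside the share of all kept genes. Percentiles are ranks among those genes.

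Named were members past 1.5-fold, the 5 highest and 5 lowest per comparison, the 12 brightest, role lists and up to 2 pathway genes per list and comparison. The members, lists and folds were chosen with earlier results of these data known. Alternatives were quantile normalization, lowess (span 0.3), median centring, offsets of 16 and 1, the mean of all clusters, no level filter and a filter at percentile 75. Python 3.11.15, numpy 2.4.6, pandas 2.3.3 and statsmodels 0.14.6 were used. The counting code was checked on copies of the WT vehicle values with known differences added and no noise, which checks the code only.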

Additional observations from a re-analysis of the deposited data

Results flagged for a closer look

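Fbxw4 and Fbxo44 went one way with STZ in WT and the other way in KO, by more than 1.5-fold in total. For Fbxw4 the STZ difference was -0.27 in WT and 0.35 in KO, 0.63 apart on the log2 scale. For Fbxo44 it was -0.27 and 0.34, 0.61 apart, at intensities of 6.50 to 10.8. With 1 array per group these differences were not tested, and 5.67% of all genes were as far apart in either direction.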

How the results depend on the processing

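Each of 5 comparisons was repeated under 8 alternatives. The count of members at least 1.5-fold different stayed at 0 for STZ in WT and for STZ in KO in all 8. For KO against WT under vehicle it went from 1 to 0 with an offset of 16 and to 2 with an offset of 1, where Fbxo44 joined at -0.65. For KO against WT under STZ it went from 1 to 0 with an offset of 16. For the difference between STZ effects it went from 2 to 1 under quantile normalization, lowess, median centring and the filter at percentile 75, and to 0 with an offset of 16. At the threshold of 0.32, the 6 genes lower in KO under STZ became 3 under quantile normalization and lowess and 4 with an offset of 16. The 4 genes lower in KO under vehicle became 1 with an offset of 16, and those higher or lower in KO STZ became 0 each. For the difference between STZ effects, the 4 negative genes became 1 under quantile normalization and lowess and 0 with an offset of 16. The share of all genes on the negative side went from 16.5% to 12.2%, 12.3% and 9.76%. The 5 positive genes became 3 under median centring and 1 with an offset of 16, while the share of all genes went from 9.45% to 7.97% and 2.86%. A larger offset damps differences by construction, and the filter at percentile 75 leaves out Fbxo44; for the other settings the cause was not tested. The member median moved by 0.1 or more in 1 of 40 repeats, to -0.13 for KO against WT under STZ with the filter at percentile 75, which leaves 23 bright genes. Among single members, 1524 of 1620 repeats stayed within 0.1 of the value given and short of 1.5-fold or, where that value was past 1.5-fold, stayed past it. This total includes repeats that could not move. The level filter only selects genes, so the 215 repeats without it and the 115 at percentile 75 were fixed in advance. The mean of all clusters could move only Fbxw5 and Fbxw9, the members with 2 clusters. A member's sign turned under at least 1 alternative in 29 of 215 cases, all with differences of 0.17 or less in size. No paired analysis was possible because each group holds 1 array. Signal near the dim reference limits Fbxo2, Fbxl16, Fbxo33, Fbxo4, Fbxw17, Fbxl8, Fbxo41, Fbxo44 and Fbxo46.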
